A study of Mus musculus with 4 samples.

Results

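Spns2 and the genes that make, break down and sense sphingosine 1-phosphate (S1P) were followed in female germline stem cells (FGSCs) with and without knockdown of Nat10. The 9 genes are the exporter Spns2, the sphingosine kinases Sphk1 and Sphk2, the lyase Sgpl1, the phosphatase Sgpp1 and the receptors S1pr1, S1pr2, S1pr3 and S1pr4, of 53465 genes in the deposited table. The set was selected on measured values, namely the FPKM of the shNC and shNAT10 libraries described here, in which Spns2 was higher in shNAT10, so their differences between the groups are given as a description and without a p-value.

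S1P is a signalling lipid that is made inside cells when a sphingosine kinase phosphorylates sphingosine. SPNS2, a membrane protein of the major facilitator superfamily, carries it out of the cell, where it binds S1P receptors, which are G protein-coupled. Inside the cell SGPL1 cleaves S1P irreversibly and SGPP1 returns it to sphingosine. SPNS2 is best known from endothelium, where the S1P that it exports guides lymphocytes out of lymphoid organs.

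RNA of cultured mouse FGSCs, labelled as germ stem cells from ovary, was sequenced as Long RNA-seq. The groups were shNC, with a non-targeting control hairpin, and shNAT10, with a hairpin against Nat10, the RNA acetyltransferase that writes N4-acetylcytidine. Each group had 2 libraries. Both groups were infected with lentivirus and selected, so they share the infection and the selection, and no uninfected cells were analysed here. The labels give no age of the animals and do not say whether the libraries of a group came from separate cultures. The paper calls them 2 biological replicates without describing their origin, so part of their spread may be technical. The errors (SE) below are those of limma, which draws the spread between 2 libraries of a gene toward that of genes of similar level. Nat10 (ENSMUSG00000027185) stood at 7.79 and 5.42 FPKM (fragments scaled to exon length and to a factor for each library) in the shNC libraries and at 2.95 and 3.04 FPKM in the shNAT10 libraries. The groups did not overlap, with a log2 fold change of -1.09 (SE 0.21) and an adjusted p of 0.123 in limma. By the rule for calls given below Nat10 was called lower, but not when either shNAT10 library was left out (-1.07 and -1.11).

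The targets of the Nat10 shRNAs are shown because they define the perturbation. The study lists 3 Nat10 target sequences and 1 control sequence, and does not state which Nat10 shRNA these libraries carried.
Nat10 shRNA 1: ttgctgttcacccagattatc
Nat10 shRNA 2: agagtgggaccttgaacttaa
Nat10 shRNA 3: gcagtggagaagtggcttaat
Control shRNA NC2: cctaaggttaagtcgccctcg
Each Nat10 target of 21 bases matched Nat10 alone among GENCODE M21 transcripts, in coding sequence on the minus strand of chromosome 2 (GRCm38). The matches lay at chr2:103731978-103731998 in exon 18 of 29, at chr2:103754169-103754189 in exon 4 and at chr2:103734449-103734469 in exon 14. The control sequence matched no transcript. With Spns2 transcripts the 4 sequences shared runs of at most 9, 8, 7 and 8 bases on either strand, and 33.4% of protein-coding genes shared a run of 9 or more bases with the first target.

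Promoter windows of Spns2 and Sphk2, the 2 genes past the rule for calls given below, are shown next, from RefSeq (GRCm38.p6), each running from 250 bases before to 50 bases after an annotated start. Capitals mark motifs. The motifs searched on both strands were the GC box GGGCGG, the CRE TGACGTCA, the TATA box TATAAA, the CAAT box CCAAT, the E-box CACGTG and the AP-1 site TGACTCA, a list that was chosen after the sequences had been seen. These motifs do not contain one another.
Spns2, chr11:72474978-72475277, minus strand: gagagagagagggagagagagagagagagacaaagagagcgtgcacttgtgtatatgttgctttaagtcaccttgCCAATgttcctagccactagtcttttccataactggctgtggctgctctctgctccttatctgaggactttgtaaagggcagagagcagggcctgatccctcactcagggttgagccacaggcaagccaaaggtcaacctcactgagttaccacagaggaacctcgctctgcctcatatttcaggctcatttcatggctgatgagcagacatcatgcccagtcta
Sphk2, chr7:45717953-45718252, minus strand: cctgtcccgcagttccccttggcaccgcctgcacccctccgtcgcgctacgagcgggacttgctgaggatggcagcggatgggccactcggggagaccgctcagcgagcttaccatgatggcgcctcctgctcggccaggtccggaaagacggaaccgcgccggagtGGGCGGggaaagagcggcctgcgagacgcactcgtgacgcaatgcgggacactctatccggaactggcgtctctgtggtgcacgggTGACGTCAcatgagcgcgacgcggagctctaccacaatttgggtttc
The Spns2 window held 2 CpG dinucleotides and 1 CCAAT, and 14.1% of the 32851 promoters in the RefSeq table held fewer CpG. It belongs to a start inside the gene, at which a non-coding GENCODE transcript with 4 exons begins at position 72475027. The coding transcript with 13 exons begins at position 72489904, and no promoter entry for that start was used. The Sphk2 window held 33 CpG, a GC box and a CRE. A second Sphk2 window, at chr7:45715158-45715457 by the start of another coding transcript, held 27 CpG, 3 GC boxes, 2 CCAAT and no CRE. The CRE occurred in 1.79%, the GC box in 35.7% and CCAAT in 37.4% of all promoters. Of the 9 genes, 8 had an entry, S1pr1 being the exception, and S1pr2 was the other gene with a window that held a CRE, beside 1 GC box and 18 CpG.
S1pr2, chr9:20976744-20977043, minus strand: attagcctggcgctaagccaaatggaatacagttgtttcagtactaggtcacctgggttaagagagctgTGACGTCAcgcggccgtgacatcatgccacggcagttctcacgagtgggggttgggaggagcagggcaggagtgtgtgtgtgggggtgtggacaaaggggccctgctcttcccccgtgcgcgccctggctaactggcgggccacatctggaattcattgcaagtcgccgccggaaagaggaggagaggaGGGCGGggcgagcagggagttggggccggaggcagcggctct
CpG counts of the other windows ran from 1 for S1pr4 to 38 for Sgpl1, against a median of 7 over all promoters. The letters are a description of these windows and say nothing of binding, which was not measured.

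The libraries held 11055153 to 14898751 fragments on genes, recovered from the FPKM. Differences were fitted with limma on log2(FPKM + 0.1) for 20116 genes with a mean of at least 0.1 FPKM, and a gene was called where its fold change was over 1.2 with an unadjusted p of at most 0.05. By that rule 16.2% of all tested genes were called, 8.41% higher and 7.83% lower in shNAT10, and 88 genes had an adjusted p under 0.05, a number that fell to 0 whichever library was left out. Over all tested genes the median log2 fold change was 0.0054. The deposited FPKM had the same median ratio (1.0044) in all 4 libraries, so a median near 0 comes from their scaling.

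Of 8 female germline markers Dazl, Dppa3, Pou5f1 and Stra8 were listed at 0 in every library, with 2 fragments in total for Ddx4, while Prdm1 stood at 0.070 to 0.092 FPKM. Sycp3, a protein of meiotic chromosomes, stood at 0.337 and 0.666 FPKM in shNC against 0.756 and 0.774 FPKM in shNAT10, without overlap and not called. Ifitm3, also called Fragilis, was the abundant marker of the list. The study's own marker assays on its FGSCs, RT-PCR and immunofluorescence, were not analysed here, and FGSC is used below as the name in the labels. The summed level of the 8 markers, 9.72 and 23.0 FPKM in shNC against 28.0 and 34.4 FPKM in shNAT10, came mostly from Ifitm3, which other cell types also express. Of 6 pan-leukocyte markers all 6 were below 0 on the log2 fold change and 4 were called lower, with sums of 453 and 504 FPKM in shNC against 371 and 391 FPKM in shNAT10. Ptprc (log2 fold change -0.014) and Coro1a (-0.036, with overlap between the groups) were nearly level. The sums of 7 mast cell markers were 271 and 284 FPKM in shNC against 290 and 286 FPKM in shNAT10, with Tpsb2 and Fcer1a at 0. Nearly all of that sum was Cpa3, at 245 to 272 FPKM, while Ms4a2 was called higher (log2 fold change 2.12) and Kit lower (-0.60). For 6 fibroblast markers the sums were 51.7 and 44.8 FPKM in shNC against 60.7 and 51.4 FPKM in shNAT10, mostly from Dcn at 36.2 to 45.9 FPKM, with Lum at 0 and with Col3a1 (0.98) and Pdgfra (0.83) called higher. For 5 endothelial markers, Pecam1, Cdh5, Kdr, Tek and Tie1, they were 0.157 and 0.240 FPKM in shNC against 0.102 and 0.199 FPKM in shNAT10, and for 5 granulosa markers, with Foxl2 and Fshr at 0, 0.204 and 0.114 FPKM in shNC against 0.203 and 0.485 FPKM in shNAT10.

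Spns2, the exporter, was expressed at a low level in the shNC libraries and at a higher level in the shNAT10 libraries. Spns2 (ENSMUSG00000040447, chr11:72451638-72489904, minus strand, GRCm38, 4083 bases of exon) stood at 0.688 and 0.598 FPKM in the shNC libraries and at 5.05 and 5.78 FPKM in the shNAT10 libraries. Both shNAT10 libraries were far above both shNC libraries, and the libraries within a group lay close together. These levels rest on 33 and 29 fragments in shNC and on 259 and 362 fragments in shNAT10. The exact Poisson 95% intervals were 0.474 to 0.966 and 0.401 to 0.859 FPKM in shNC, and 4.46 to 5.71 and 5.20 to 6.41 FPKM in shNAT10. Such intervals cover counting error only.

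The mean level of Spns2 was 0.643 FPKM (SD 0.0635, n = 2) in shNC and 5.42 FPKM (SD 0.516, n = 2) in shNAT10, a ratio of 8.42. On the log2(FPKM + 0.1) scale, which understates changes of low genes, the difference was 2.89 (SE 0.18), while the libraries of a group differed by 0.17 in shNC and 0.19 in shNAT10 on the same scale. By log2 fold change it ranked 89 from the top among all 20116 tested genes, a place that comes from the values that chose it. In level it lay above 33.7% and 30.7% of the tested genes in the shNC libraries and above 70.3% and 72.9% in the shNAT10 libraries. In bulk RNA, more cells that express Spns2 and more Spns2 RNA per cell cannot be told apart. The endothelial markers were near 0 in all 4 libraries, as given above, and the part of the fibroblast, mast cell and leukocyte markers in the Spns2 difference was not tested.

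**Figure D1:**
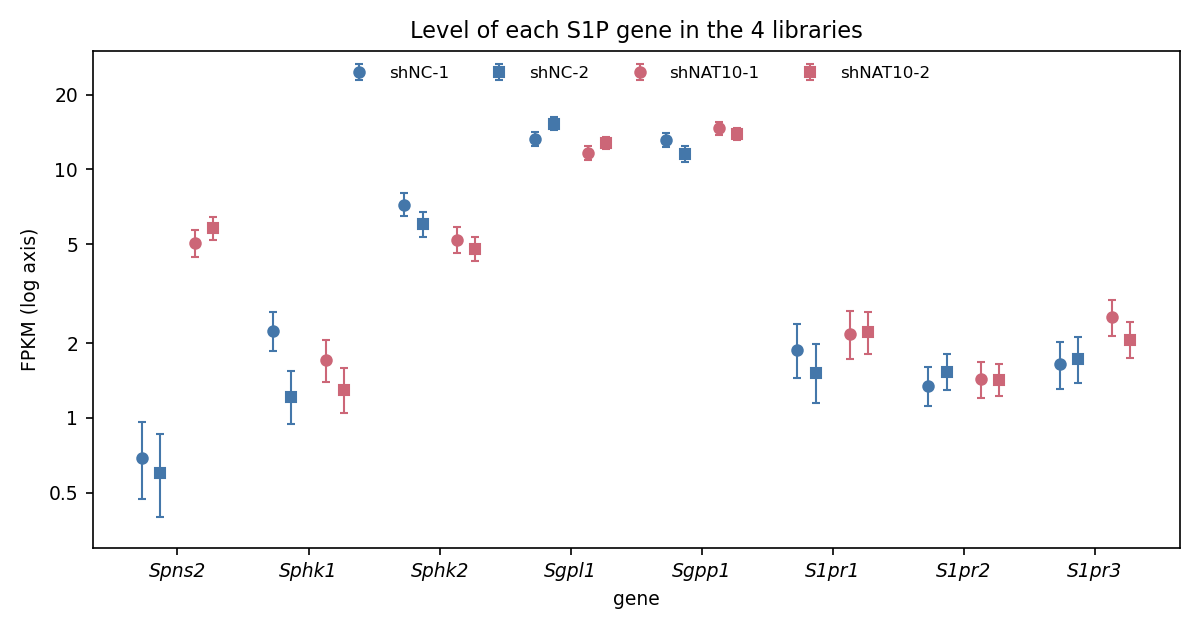
Level of each S1P gene in FPKM (log axis) in the 4 libraries, with circles for replicate 1, squares for replicate 2 and bars for exact Poisson 95% intervals. Spns2 lies at 0.598 and 0.688 FPKM in shNC as against 5.05 and 5.78 FPKM in shNAT10, while the other genes shift far less, and S1pr4, listed at 0 in every library, is not drawn.

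The genes beside Spns2 were read for the same libraries. Downstream, the exons of Mybbp1a on the opposite strand overlap those of Spns2 by 131 bases, and because no source says whether strand was used in counting, fragments in that overlap cannot be told apart. Mybbp1a, a MYB-binding nucleolar protein, stood at 44.6 and 36.5 FPKM in shNC as against 45.9 and 46.0 FPKM in shNAT10. The shNAT10 libraries were just above the higher shNC library, and Mybbp1a was not called (log2 fold change 0.19, SE 0.12, adjusted p 0.530 in limma). Upstream, 5014 bases before the Spns2 start and on the same strand, lies its paralogue Spns3, at 9.91 and 7.77 FPKM in shNC as against 11.7 and 13.1 FPKM in shNAT10. Spns3 was called higher (log2 fold change 0.50, SE 0.16, adjusted p 0.243 in limma), a far smaller difference than that of Spns2, and the call was lost without shNC replicate 2 or either shNAT10 library, with values from 0.32 to 0.67. Of the other genes within 100 kb, Tekt1, Ggt6 and Mir6338 were listed at 0 in all 4 libraries, Smtnl2 had 1 fragment, and Gm12712 had 2 fragments in each shNC library and 0 in each shNAT10 library, too few for a direction.

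**Figure D2:**
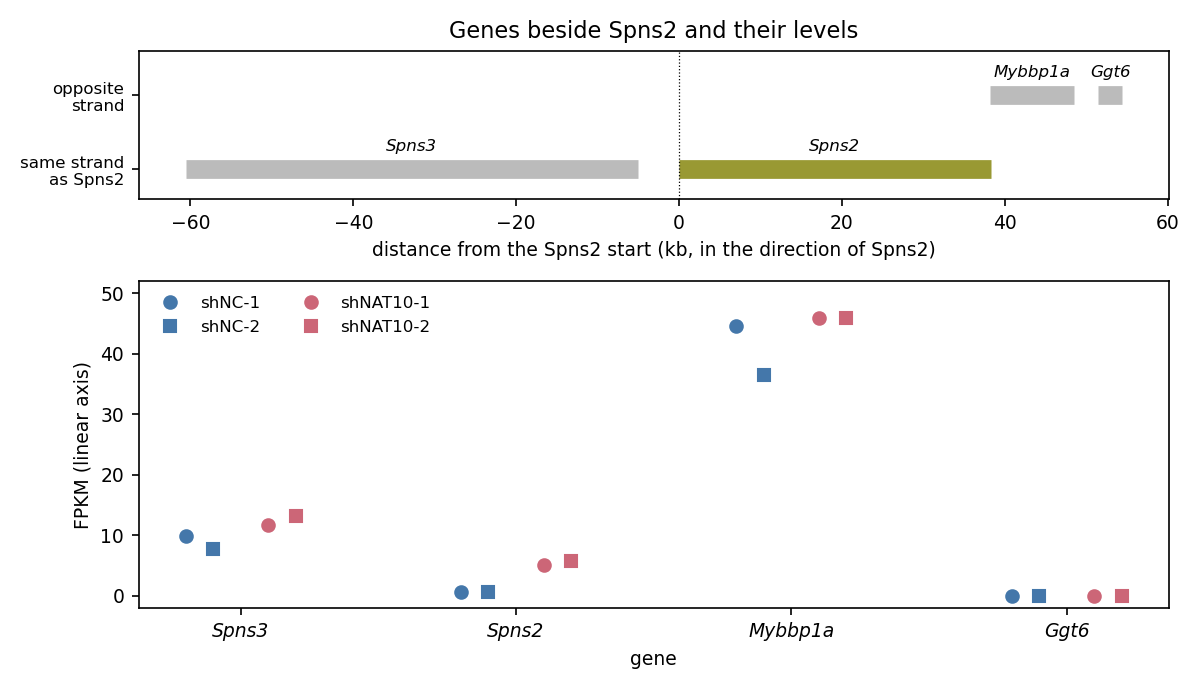
Upper panel, genes beside Spns2 by distance from the Spns2 start in kb along the direction of Spns2, split by strand. Lower panel, their FPKM (linear axis) in each library, where Mybbp1a ranges from 36.5 to 46.0 FPKM and Spns3 from 7.77 to 13.1 FPKM while Spns2 goes from 0.598 to 5.78 FPKM.

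The genes whose profile was most like that of Spns2 were sought by the Euclidean distance of centred log2(FPKM + 0.1) over the 4 libraries among genes with a mean of at least 1 FPKM. The nearest was Steap4, a metalloreductase, at a distance of 0.33, with 0.459 and 0.374 FPKM in shNC against 3.33 and 3.02 FPKM in shNAT10. Next came Gm22551, a small nucleolar RNA gene with 16 fragments in total, at 0.57, and Ogn, a small leucine-rich proteoglycan, at 0.64. Ogn stood at 0.863 and 1.08 FPKM in shNC as against 5.53 and 5.36 FPKM in shNAT10. All 3 were higher in both shNAT10 libraries, which the measure favours, since Spns2 varied mainly between the groups.

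The kinases that make S1P did not follow the exporter. Sphk2 (ENSMUSG00000057342, chr7:45709467-45718002, minus strand), the more abundant kinase and the one also found in the nucleus, stood at 7.21 and 6.02 FPKM in shNC as against 5.21 and 4.78 FPKM in shNAT10. Both shNAT10 libraries were below both shNC libraries. The ratio of the means was 0.756 and the log2 fold change was -0.39 (SE 0.14), given as a description like those of the other S1P genes. Sphk2 passed the rule for calls with all libraries, which is no test, since the set was selected on these values. The value was -0.26 without shNC replicate 1, -0.45 without shNAT10 replicate 1 and -0.33 without shNAT10 replicate 2, and the call was lost in each case. Sphk2 shares 373 exon bases with Rpl18 and 539 with Dbp, both on the opposite strand, where fragments cannot be assigned with certainty. Rpl18, a protein of the large ribosomal subunit, stood at 213 and 253 FPKM in shNC as against 198 and 205 FPKM in shNAT10 (log2 fold change -0.20, SE 0.12, not called).

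Sphk1 (ENSMUSG00000061878, chr11:116530925-116536674, plus strand), the mostly cytosolic kinase, stood at 2.23 and 1.22 FPKM in shNC as against 1.70 and 1.30 FPKM in shNAT10. The shNAT10 libraries lay between the shNC libraries, which differed by 0.82 on the log2(FPKM + 0.1) scale. Sphk1 shares 192 exon bases with Gm29292 on the opposite strand, a gene at up to 0.333 FPKM. The log2 fold change of Sphk1 was -0.14 (SE 0.34), smaller than its error, and its sign turned without shNC replicate 1 (0.27) or shNAT10 replicate 2 (0.04). Per length, Sphk2 was the higher of the kinases in every library, with a ratio of Sphk2 to Sphk1 FPKM of 3.23 and 4.94 in shNC and of 3.06 and 3.69 in shNAT10.

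The enzymes that remove S1P inside the cell were the most abundant of the 9 genes per length. Sgpl1 (ENSMUSG00000020097, chr10:61098642-61147703, minus strand), the lyase, stood at 13.2 and 15.3 FPKM in shNC as against 11.7 and 12.7 FPKM in shNAT10. Both shNAT10 libraries were slightly lower, by a log2 fold change of -0.22 (SE 0.12), and the gene was not called. Sgpp1 (ENSMUSG00000021054, chr12:75714249-75735729, minus strand), the phosphatase, stood at 13.1 and 11.5 FPKM in shNC as against 14.6 and 13.8 FPKM in shNAT10. Here both shNAT10 libraries were slightly higher, by 0.21 (SE 0.11), and the gene was not called. The value was 0.30 without shNC replicate 1.

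The levels of these enzymes set the Spns2 level in scale. Spns2 FPKM amounted to 5.19% and 3.92% of Sgpl1 FPKM in the shNC libraries and to 43.3% and 45.4% in the shNAT10 libraries. The ratio of Sgpp1 to Sgpl1 FPKM was 0.990 and 0.755 in shNC and 1.26 and 1.09 in shNAT10. Both ratios separated the groups without overlap, the first mainly through Spns2 and the second through small opposite shifts.

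**Figure D3:**
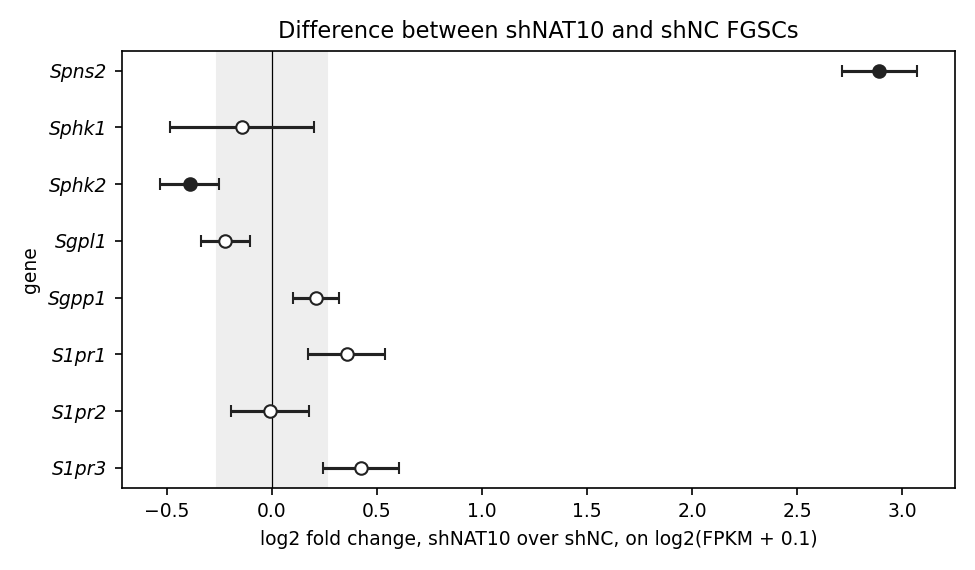
Log2 fold change of shNAT10 over shNC with its SE for the 8 genes that could be tested, on log2(FPKM + 0.1). Filled points are called, the grey band spans a fold change of 1.2 in either direction, and Spns2 at 2.89 stands apart from the others, which run from -0.39 to 0.42.

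Of the 4 receptors, S1pr1, S1pr2 and S1pr3 were expressed at low and similar levels per length. S1pr1 (ENSMUSG00000045092, chr3:115710433-115715072, minus strand), the Gi-coupled receptor that lymphocytes use for egress, stood at 1.87 and 1.52 FPKM in shNC as against 2.17 and 2.21 FPKM in shNAT10. S1pr3 (ENSMUSG00000067586, chr13:51408639-51422797, plus strand), which couples to several G proteins, stood at 1.64 and 1.72 FPKM in shNC as against 2.53 and 2.06 FPKM in shNAT10. Both receptors were higher in both shNAT10 libraries, with log2 fold changes of 0.36 (SE 0.18) and 0.42 (SE 0.18), and neither was called. S1pr3 shares 45 exon bases with Gm32834 on the opposite strand, a gene at 0.325 to 0.916 FPKM.

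S1pr2 (ENSMUSG00000043895, chr9:20962361-20976781, minus strand), which couples to G12/13, stood at 1.35 and 1.53 FPKM in shNC as against 1.43 and 1.42 FPKM in shNAT10. The shNAT10 libraries lay between the shNC libraries, and the log2 fold change was -0.0091 (SE 0.19). S1pr4 (ENSMUSG00000044199, chr10:81497747-81500132, minus strand), a receptor of blood and lymphoid cells, was listed at 0 in all 4 libraries, which allows up to 0.0820 to 0.107 FPKM, the worth of 3 fragments in each library. The summed receptor level was 4.86 and 4.77 FPKM in shNC against 6.14 and 5.69 FPKM in shNAT10. S1pr1 made up 31.9% to 38.8% of that sum, S1pr2 23.3% to 32.1% and S1pr3 33.8% to 41.3%, and the order of the 3 receptors differed between libraries of the same group.

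Of the 9 genes 8 were tested, with Spns2 past the rule for higher and Sphk2 past that for lower, beside 8.41% and 7.83% of all tested genes. Since the set was selected on these values, nothing is read from the count. Their median log2 fold change was 0.10, with 4 genes above and 4 below 0. The groups did not overlap for 6 of the 8, with 4 higher (Spns2, Sgpp1, S1pr1 and S1pr3) and 2 lower (Sphk2 and Sgpl1) in shNAT10, while 48.0% of all tested genes were without overlap, 23.9% higher and 24.1% lower. Scaling to equal FPKM totals outside rRNA-related loci moved the median of all genes to 0.49, and under it Sphk2 (0.12), Sgpl1 (0.30), Sphk1 (0.35) and S1pr2 (0.48) turned above 0 while staying below that median. In order of mean level over the 4 libraries Sgpp1 and Sgpl1 came first, nearly level, and Sphk2 next, followed by Spns2, which owes its place to the shNAT10 libraries. S1pr3, S1pr1, Sphk1 and S1pr2 followed within a range narrower than the spread of Sphk1 between the shNC libraries.

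Further genes of the pathway were listed as 62 genes in 3 lists, of which 57 were tested and 7 (12.3%) were called, against 16.2% of all tested genes. Their median log2 fold change was 0.018, and none of the 57 (0) had an adjusted p under 0.05 in limma on FPKM. An unadjusted p under 0.05 was reached by 8 of them, and limma-voom on recovered fragments gave an adjusted p under 0.05 to 4, namely Arrb2, Cd69, Klf2 and Spns3. That is 7.02% of the 57, near the 7.88% of all genes that limma-voom tested.

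Of 11 genes for S1P and lysophospholipid handling 9 were tested, with 2 called higher, none (0) lower and a median of 0.15. Beside Spns3 this was Plpp1, a lipid phosphatase of the cell surface that dephosphorylates extracellular S1P. Plpp1 stood at 2.43 and 1.93 FPKM in shNC as against 3.28 and 3.47 FPKM in shNAT10, without overlap (log2 fold change 0.62, SE 0.18, adjusted p 0.215 in limma). That call was lost without shNC replicate 2 or either shNAT10 library, with values from 0.45 to 0.78. The highest levels were those of Plpp2 (mean of 17.7 FPKM, log2 fold change 0.10), Spns1, a lysosomal lysophospholipid transporter (15.9 FPKM, -0.06), and Spns3 (10.6 FPKM). Mfsd2b, the S1P exporter of red cells and platelets, had 16 fragments in total and the receptor S1pr5 had 9, and both were left untested because their mean levels of 0.0611 and 0.0706 FPKM were under the minimum of 0.1 FPKM.

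Of 34 genes that supply ceramide and sphingosine 31 were tested, with 1 called higher, none (0) lower and a median of 0.0029. The gene called was Ugcg, the glucosylceramide synthase, at 12.1 and 13.3 FPKM in shNC as against 15.2 and 16.3 FPKM in shNAT10 (log2 fold change 0.31, SE 0.10, adjusted p 0.257 in limma). It lost the call without shNC replicate 1 or either shNAT10 library, with values from 0.24 to 0.37. Among the most abundant were Degs1, the dihydroceramide desaturase (29.7 FPKM, 0.04), and Ormdl3, an inhibitor of serine palmitoyltransferase (25.4 FPKM, -0.07), given as mean level and log2 fold change. Sptlc3, Sptssb and Acer1 were listed at 0.

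All 17 genes of receptor signalling were tested, with 2 called higher, 2 called lower and a median of -0.0058. Those called lower were Klf2, a transcription factor that drives S1pr1 in lymphocytes, and Cd69, an activation antigen that takes S1PR1 off the cell surface. Klf2 stood at 2.17 and 2.14 FPKM in shNC as against 0.690 and 0.848 FPKM in shNAT10 (log2 fold change -1.38, SE 0.21, adjusted p 0.089 in limma). Both shNAT10 libraries were far below both shNC libraries, and the call held whichever library was left out. Cd69 stood at 6.03 and 7.79 FPKM in shNC as against 3.27 and 2.40 FPKM in shNAT10, also without overlap (-1.26, SE 0.22, adjusted p 0.112 in limma). Its call was lost without shNC replicate 2 or shNAT10 replicate 2, with values from -1.48 to -1.05. Of the pan-leukocyte markers given above 4 were called lower in the same libraries, while Ptprc and Coro1a were nearly level. The part of these markers in the Klf2 and Cd69 differences was not tested.

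Those called higher were Arrb2, a beta-arrestin that takes part in receptor internalisation, and Gnaq, the alpha subunit of Gq. Arrb2 stood at 17.5 and 12.8 FPKM in shNC as against 21.2 and 20.8 FPKM in shNAT10 (log2 fold change 0.48, SE 0.17, adjusted p 0.275 in limma). Gnaq stood at 0.853 and 0.722 FPKM in shNC as against 1.49 and 1.14 FPKM in shNAT10 (0.67, SE 0.25, adjusted p 0.299 in limma). Neither overlapped between groups, but Gnaq lost its call in each of the 4 fits that left out a library (0.49 to 0.85) and Arrb2 in 3, all but that without shNC replicate 1 (0.26 to 0.71). Over all 15 alternatives the call held in 5 for Gnaq and in 10 for Arrb2. The most abundant were Gnai2, the Gi subunit through which S1PR1 signals (75.0 FPKM, -0.23), Rac1 (31.5 FPKM, -0.10) and Grk2, a receptor kinase (28.9 FPKM, -0.10).

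**Figure D4:**
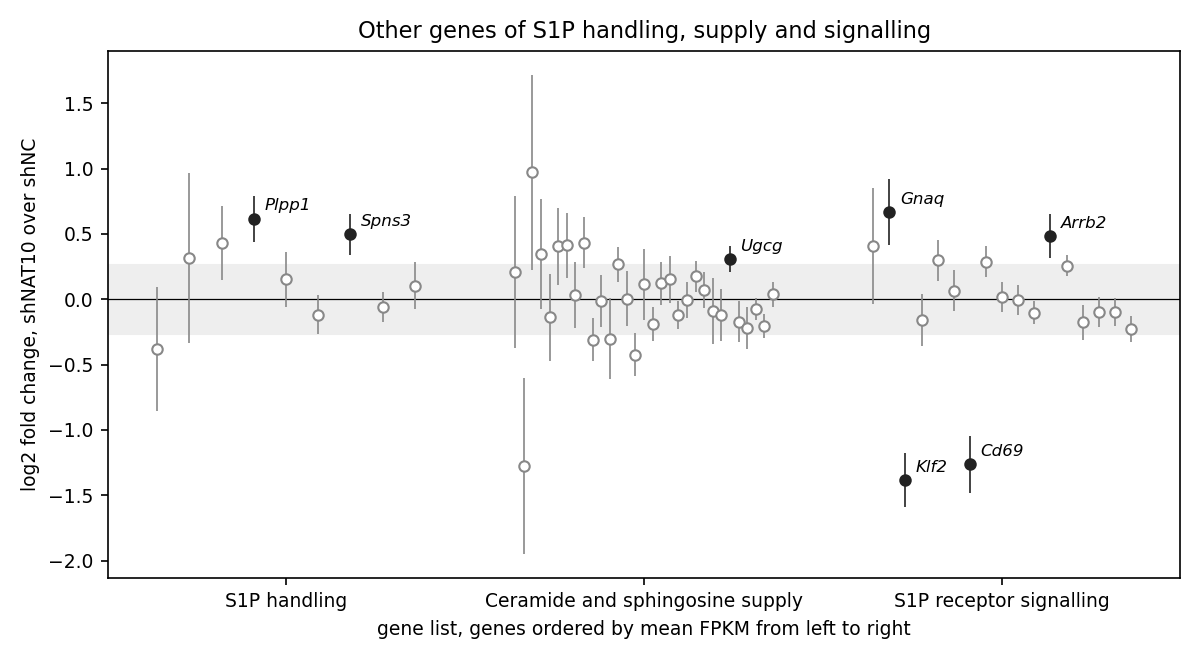
Log2 fold change of shNAT10 over shNC with its SE for 57 other genes of the pathway in 3 lists, ordered within each list by mean FPKM. Filled and named points are the 7 called genes and the grey band spans a fold change of 1.2 in either direction, with Klf2 at -1.38 and Cd69 at -1.26 the called genes below it.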

How the data were processed

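Long RNA-seq of 2 shNC and 2 shNAT10 FGSC libraries was grouped by the sample titles. According to the methods, the authors aligned reads with HISAT2 and used DESeq2, and the submitters' processing notes also name cutadapt and the build mm10. The counting program and its use of strand are not given in the sources used here, and the methods (rRNA depletion) and the labels (mRNA isolation with a directional kit) differ on the preparation. The authors deposited FPKM for 53465 genes. A second deposited table holds FPKM for 13023 genes, equal to the first, and their log2 fold changes and p-values, which were not used.

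FPKM was tested as log2(FPKM + 0.1) with limma 3.58.1 (trend, two-sided) in R 4.3.3, on genes with a mean of at least 0.1, without a replicate term. P-values were adjusted by Benjamini-Hochberg over all 20116 genes. Fragments were recovered as whole numbers with GENCODE M21 exon lengths, available for 99.8% of genes. Of values under 50 fragments, 96.0% to 96.6% fell within 0.02 of a whole number. The fit was tested on simulated data in which 198 of 200 genes changed by 1.5 on the log2 scale were called, as were 5.0% of unchanged genes, and smaller changes were not simulated. All genes were given the same dispersion of 0.02, and changed genes with fewer than 50 expected fragments were not simulated. These shares therefore do not carry over to genes with few fragments or a wider spread. Python 3.11.15 with scipy 1.17.1 and matplotlib 3.10.9 was used for intervals and plots. A floor of 3 fragments was taken.

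The genes, lists and alternatives were chosen with earlier results of these data known. Named were the 9 genes and Nat10, every called gene and the 3 highest of each further pathway list, apart from an item that is not reported here, and the 3 genes most like Spns2. Single marker genes, Mybbp1a and genes overlapping the 9 were named after their values were seen. Alternatives were pseudocounts of 1 and 0.01, no filter, a mean of at least 1 FPKM, median-ratio, equal-total and quantile scaling, no trend, a replicate block, each library left out and limma-voom on recovered fragments. Median-ratio scaling could change nothing, since the deposited FPKM had the same median ratio (1.0044) in all 4 libraries. For a gene that is kept, the filters, the missing trend and the block cannot move the log2 fold change, only its error.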

Additional observations from a re-analysis of the deposited data

How the results depend on the processing

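The Spns2 difference, on whose values the set was selected, ranged over the 15 alternatives from 1.96 with a pseudocount of 1 to 3.37 with equal FPKM totals outside rRNA-related loci, and from 2.80 to 2.99 with each library left out. That equal-total scaling moved the median of all genes to 0.49. The totals were 1849311 and 1375496 FPKM in shNC against 1100166 and 1118192 FPKM in shNAT10, and dividing by them raises shNAT10 against shNC. The locus Gm23935 took 81.6% and 73.8% of the total in shNC against 68.6% and 70.0% in shNAT10. This scaling gave 4557 genes higher and 203 lower, 4 of the 9 S1P genes higher and 0 lower, and 15 other pathway genes higher and 1 lower. Under it Sphk1 turned to 0.35, Sphk2 to 0.12, Sgpl1 to 0.30 and S1pr2 to 0.48, all below the median of all genes. With equal totals over protein-coding genes 0 of the 9 S1P genes were called lower and 3 other pathway genes higher, and without the trend 0 and 2. Limma-voom called 10 other pathway genes higher and 4 lower (24.6% of 57), and 2019 and 1875 of all 20077 genes that it tested (19.4%). Beyond the division by unequal totals given above, the cause of these moves was not tested.

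With each library left out, 1108 to 1734 genes were called higher and 899 to 1659 lower, with 1 to 2 S1P genes higher and 0 to 1 lower, and 0 to 5 other pathway genes higher and 2 to 4 lower. The 88 genes with an adjusted p under 0.05 became 0 in each of these 4 fits, without the filter on low values, without the trend, with the replicate block and with a pseudocount of 1 or 0.01, and 1582 in limma-voom. The library left alone in its group is then assumed to vary like the other group. Nat10 ran from -1.35 to -0.83 and lost its call without shNAT10 replicate 1 (-1.07) or 2 (-1.11). Sphk1 ran from -0.55 to 0.27, turning to 0.27 without shNC replicate 1 and to 0.041 without shNAT10 replicate 2, and S1pr2 from -0.097 to 0.078, turning to 0.078 without shNC replicate 2. The replicate numbers did not pair the libraries (r = 0.0071 across 20116 genes between the replicate differences of the groups). With the replicate number as a block 1587 genes were called higher and 1527 lower, and 1 S1P gene was called in each direction. In this balanced design a block cannot move a log2 fold change, so the 2.89 of Spns2 is the same value by construction. Precision is limited by 2 libraries per group and by 29 to 33 Spns2 fragments in the shNC libraries.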
